A study of Mus musculus with 11 samples.

Results

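Interleukin 1 alpha, interleukin 1 beta and interleukin 18 are inflammatory cytokines, and inflammasomes are the cytosolic protein assemblies through which interleukin 1 beta and interleukin 18 are matured and released. The genes described are 9 in number, taken by gene name out of the 25121 rows of the deposited table. Nlrp3 encodes a sensor and Pycard its adaptor ASC. Casp1 and Casp4 encode inflammatory caspases, and Gsdmd encodes the pore protein gasdermin D. Il1a, Il1b and Il18 encode cytokines, and Il1rn encodes the interleukin 1 receptor antagonist. All 9 were found on 1 row each, and all 9 passed the filter on low counts. They were chosen for their function, but with earlier results of these data known.

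RNA was sequenced from mouse bone marrow-derived macrophages collected from Transwell inserts after 72 h above primary proximal tubule epithelial cells. In 5 libraries (replicates 2 to 6) the co-cultures were treated with hemin, the oxidised chloride form of heme, at 10 µM and with TGF-β1, a profibrotic growth factor, at 5 ng/mL. The other 6 libraries (replicates 1 to 6) came from co-cultures given the same dose of TGF-β1 without hemin. TGF-β1 was therefore present in every culture. No group lacked the epithelial cells or TGF-β1, so an action of hemin on the macrophages cannot be told apart from one through the epithelium. The labels name no strain, sex or age of the mice and are silent on whether each library had its own animal or culture. The p-values therefore measure the spread between these libraries, which may be technical.

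As background, macrophages build up this pathway in 2 steps. Priming through Toll-like or cytokine receptors and NF-κB raises transcription of Il1b and Nlrp3. A later signal, such as potassium loss, lets NLRP3 recruit ASC and caspase 1, which cuts pro-interleukin 1 beta, pro-interleukin 18 and gasdermin D. Caspase 4 of the mouse, also called caspase 11, senses cytosolic lipopolysaccharide and cuts gasdermin D directly. The RNA level measures the transcript pool and not the cut, active proteins.

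Total counts ran from 66.7 to 96.6 M per hemin library and from 65.5 to 71.5 M per TGF-β1 library. Hmox1, the gene of the heme-degrading enzyme heme oxygenase 1, had 7483 ± 179 CPM, read counts scaled to library size with TMM factors, in hemin libraries and 1528 ± 88.9 CPM in TGF-β1 libraries (SD, n = 5 and 6), and every hemin library was above every TGF-β1 library. Macrophage markers (all 9 of the list in the table) summed to 5922 to 7109 FPKM with hemin and 5366 to 7457 FPKM with TGF-β1 alone. FPKM is the authors' fragment count scaled by transcript length and library size. Of the 10 listed neutrophil genes 8 were in the table, and 7 of these were under 1 FPKM in all 11 libraries. S100a9 was at 0 in every hemin library, and Mpo, Elane and Camp were at 0 in every TGF-β1 library. The sum of the 8 ran from 4.97 to 6.60 FPKM with hemin and from 6.02 to 7.69 FPKM with TGF-β1 alone, nearly all of it S100a8. The monocyte list (5 of 5 genes in the table) summed to 2.04 to 2.56 FPKM with hemin and 2.70 to 4.80 FPKM with TGF-β1 alone. Its mean level was lower on the log2(FPKM + 1) scale (-0.17, 2-sided exact permutation test over 462 splits, p = 0.00433, adjusted 0.0346 over 8 lists). That call was lost on the log2 CPM and log2(FPKM + 0.1) scales and held in 1 of the single-library omissions. In the edgeR test 1 of the 5 genes was called lower and none higher. Ly6c2 had the higher mean with hemin (0.175 FPKM, against 0.0643 FPKM with TGF-β1 alone). The summed renal epithelial markers (10 of 11 in the table) ran from 2.83 to 6.22 FPKM with hemin and from 6.13 to 11.6 FPKM with TGF-β1 alone. Cdh1 was the largest (means of 1.95 FPKM with hemin and 5.39 FPKM with TGF-β1 alone), and Lrp2, Cubn and Aqp1 were under 1 FPKM throughout. Krt8 (1.81 and 1.98 FPKM, in the same order) and Krt18 (0.916 and 1.13 FPKM) had means closer together. Of the 5 renal genes tested by edgeR 1 was called lower and none higher. Fibroblast markers (7 of 8 in the table) summed to 30.3 to 54.2 FPKM with hemin and 38.9 to 94.4 FPKM with TGF-β1 alone, led by Acta2 and Col1a1, which reached levels like those of the more abundant of the 9 genes. The dendritic (4 of 7 in the table), mast cell (4 of 6), and T, NK and B cell (2 of 9) lists held no gene that reached 1 FPKM. None of these 5 other lists, nor the macrophage and neutrophil lists, passed (adjusted exact permutation p of 0.104 to 0.827). The part of these cells in the results was not tested. In a bulk library, fewer cells of a type and less RNA per cell cannot be told apart.

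Casp1 was the 1 gene of the 9 that passed the test (edgeR adjusted p under 0.05). It rose 1.31-fold with hemin (log2 fold change 0.39, SE 0.07). No gene of the 9 fell at the threshold, and the 2 nearest to it were lower with hemin: Il18 at 0.72-fold and Pycard at 0.89-fold. Across all 15132 tested genes edgeR called 14.2%, 8.43% higher (1276 genes) and 5.75% lower (870 genes) with hemin. Without TMM scaling, on library totals alone, the split was 734 higher and 2487 lower. In the edgeR test the 1 call in 9 genes is near that background share and is not a result about the genes as a set. Other fits also called Il18 and Pycard lower. DESeq2 called both, beside 8.55% of genes lower (18.8% in either direction, against 3 of the 9), and so did library totals (16.4% lower) and limma on log2(FPKM + 1) (20.8%), on log2(FPKM + 0.1) (20.9%) and without a filter (6.51%). Median-of-ratios factors called Il18 alone (6.21% lower), and the test on genes of at least 5 FPKM called Pycard alone (12.3%). The median log2 fold change of the 9 was 0.09, beside -0.0025 for all tested genes. The median size, without its sign, was 0.15 for both.

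**Figure D1:**
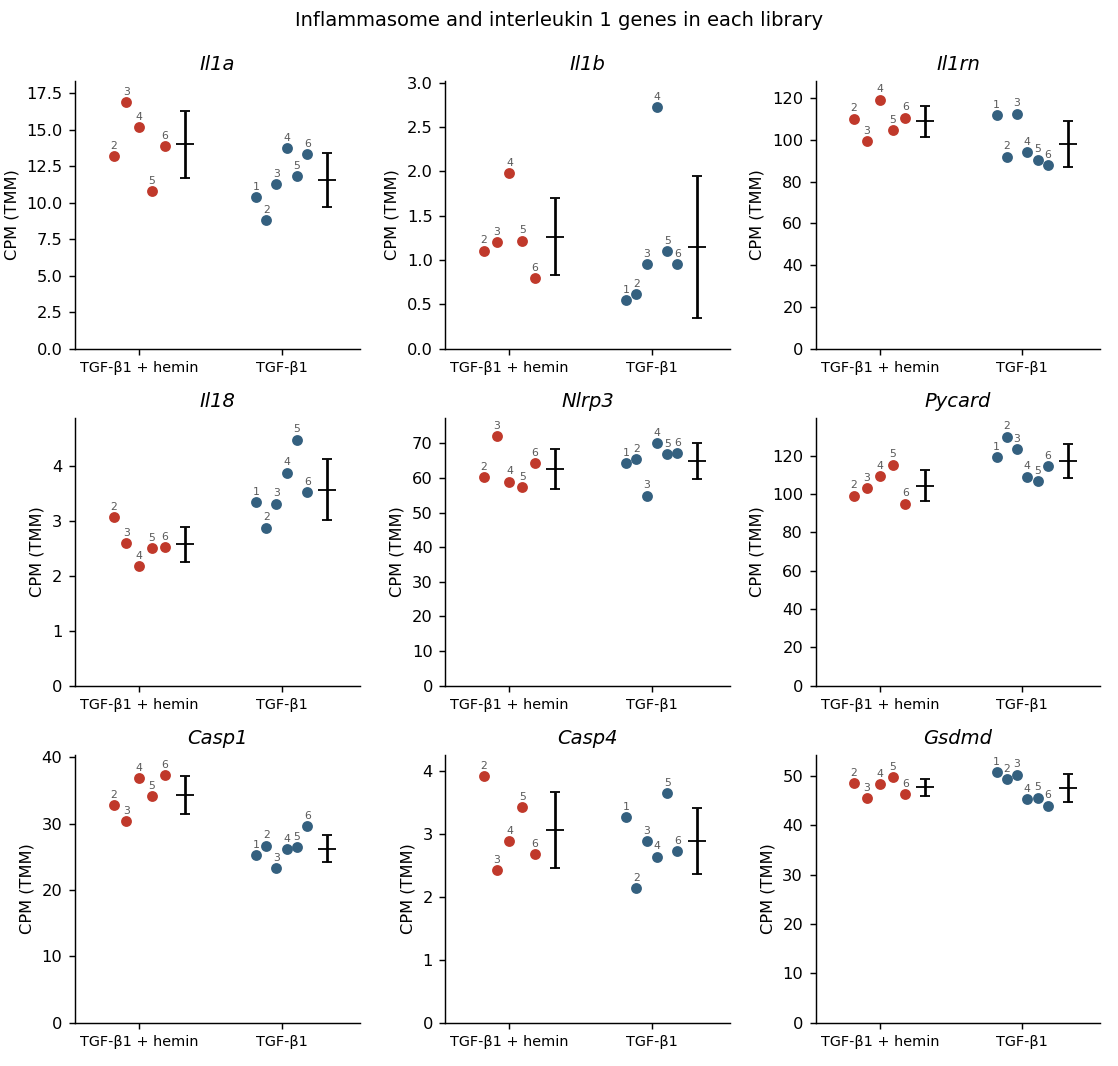
Level of each of the 9 genes in every library, in CPM after TMM normalization (y axis from 0), with TGF-β1 plus hemin to the left of TGF-β1. Points are libraries with their replicate numbers, and bars give mean ± SD (n = 5 and 6). Casp1 is the gene whose groups do not overlap, and replicate 4 stands above the other TGF-β1 libraries for Il1b.

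The sequence before the start site is shown for 4 genes: Casp1, which changed, its neighbour Casp4, which did not pass, and Il18 and Pycard, the pair nearest to the threshold. Each is the 250 bases upstream of a RefSeq start site, build GRCm38.p6, written 5′ to 3′ on the gene's strand. The counts themselves were placed on GRCm39, so the windows are given for reading only. Capitals mark matches to the motifs described next. Casp1 is chr9:5298267-5298516 (plus strand), Casp4 chr9:5308599-5308848 (plus strand), Il18 chr9:50554450-50554699 (plus strand) and Pycard chr7:127993868-127994117 (minus strand).
Casp1: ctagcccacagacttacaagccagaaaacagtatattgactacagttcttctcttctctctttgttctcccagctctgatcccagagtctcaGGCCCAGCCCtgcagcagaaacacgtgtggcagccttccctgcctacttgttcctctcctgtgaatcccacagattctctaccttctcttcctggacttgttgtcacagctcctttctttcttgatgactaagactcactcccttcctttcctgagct
Casp4: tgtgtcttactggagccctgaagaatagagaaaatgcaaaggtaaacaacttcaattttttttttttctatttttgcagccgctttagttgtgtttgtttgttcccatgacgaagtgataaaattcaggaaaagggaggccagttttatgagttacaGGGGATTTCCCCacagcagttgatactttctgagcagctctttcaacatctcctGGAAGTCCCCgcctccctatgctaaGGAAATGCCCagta
Il18: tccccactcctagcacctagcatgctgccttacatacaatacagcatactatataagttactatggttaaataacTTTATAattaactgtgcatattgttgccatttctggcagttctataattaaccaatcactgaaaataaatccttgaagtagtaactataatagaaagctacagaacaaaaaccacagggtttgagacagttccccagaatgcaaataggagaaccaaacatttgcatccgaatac
Pycard: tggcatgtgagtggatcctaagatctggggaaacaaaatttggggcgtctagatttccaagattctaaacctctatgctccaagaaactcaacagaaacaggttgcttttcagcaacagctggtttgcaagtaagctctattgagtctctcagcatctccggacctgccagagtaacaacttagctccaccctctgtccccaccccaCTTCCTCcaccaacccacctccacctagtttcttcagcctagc

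Motifs were searched on both strands in windows of 300 bases, from 250 before to 50 after a start site. RefSeq windows matched 8 of the 9 genes, with 12 windows in all. The NF-κB pattern, GGG and CC parted by any 5 bases, occurred in 50.8% of all 32851 such windows. It occurred in 8 of the 12 windows here, which belong to 4 of the 8 genes. Windows of the same gene can overlap and share a match. The first Casp4 window held 5 matches, of which 3 overlap each other in the run GGGGATTTCCCC. Casp1 held 1 match, 158 bases before the start, and the windows of Il18, Pycard, Il1a and Il1b held none. The antioxidant response letters TGACNNNGC occurred in 12.4% of all windows and, among these genes, in 1 window of Nlrp3. The AP-1 letters TGANTCA (7.81% of windows) were found for Il1a and Il1rn, the TATA letters TATAAA (13.6%) for 4 genes including Il1a and Il1b, and the PU.1 letters GAGGAAG (13.6%) for Il1a, Nlrp3 and Pycard. The interferon response pattern, GAAA repeated after any 2 bases (3.44%), matched none. These matches describe letters in a window and say nothing of binding.

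The sensor gene Nlrp3 (ENSMUSG00000032691, chromosome 11, 59432394 to 59457781, plus strand, GRCm39) did not pass in any fit. Hemin libraries had 60.3, 72.0, 58.9, 57.4 and 64.2 CPM, against a range of 54.9 to 70.0 CPM with a median of 66.1 CPM in TGF-β1 libraries. The groups overlapped along almost their whole range. Its log2 fold change of -0.05 (SE 0.07) had a 95% interval of 0.873 to 1.07-fold (edgeR quasi-likelihood test, adjusted p = 0.729), at 3842 to 5972 counts per library.

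The adaptor gene Pycard (ENSMUSG00000030793, chromosome 7, 127588880 to 127593039, minus strand) was the most abundant of the 9 per length. Its CPM in hemin libraries were 99.1, 103, 110, 115 and 94.9, against 107 to 130 with a median of 117 in TGF-β1 libraries. All 5 hemin libraries lay below the TGF-β1 median and 3 lay below every TGF-β1 library. At a log2 fold change of -0.17 (SE 0.06, 0.82 to 0.98-fold), Pycard did not pass (edgeR adjusted p = 0.0879). On the deposited FPKM the groups did not overlap, at 22.7 to 27.0 FPKM with hemin and 27.6 to 31.4 FPKM with TGF-β1 alone, as for 12.4% of all tested genes. There the limma test on log2(FPKM + 1) passed (log2 fold change -0.26, adjusted p = 0.00191, where the median of all genes was -0.085), and so did DESeq2 (-0.17, adjusted p = 0.0369). The direction was the same in all 21 alternatives, 7 of which passed.

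Caspase 1 is the protease that matures interleukin 1 beta and interleukin 18. Its gene Casp1 (ENSMUSG00000025888, chromosome 9, 5298508 to 5307290, plus strand) had 32.8, 30.4, 36.8, 34.2 and 37.3 CPM in hemin libraries. TGF-β1 libraries ranged from 23.3 to 29.6 CPM with a median of 26.3 CPM. Every hemin library was above every TGF-β1 library, a separation seen for 10.2% of all tested genes on CPM. On the deposited FPKM the groups overlapped, with 8.86 to 10.8 FPKM in hemin libraries and 7.13 to 9.27 FPKM in TGF-β1 libraries. The means were 34.3 ± 2.87 CPM with hemin and 26.2 ± 2.05 CPM with TGF-β1 alone, a 1.31-fold rise with a 95% interval of 1.18 to 1.45-fold (edgeR adjusted p = 0.00144). It passed in all 21 alternatives, with log2 fold changes of 0.25 to 0.43 and adjusted p-values of 1.12e-05 to 0.0314.

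Casp4 (ENSMUSG00000033538, chromosome 9, 5308828 to 5336783, plus strand) lies on the same strand 1537 bases beyond the end of Casp1. Per length it was much lower than Casp1, at 0.734 and 9.78 FPKM on average in hemin libraries. It had 3.93, 2.42, 2.89, 3.43 and 2.69 CPM in hemin libraries and 2.14 to 3.66 CPM (median 2.81) in TGF-β1 libraries. The groups overlapped, with hemin replicate 2 above all TGF-β1 libraries. The fitted difference was 0.09 on the log2 scale (SE 0.18, 0.82 to 1.37-fold, edgeR adjusted p = 0.832), and its sign turned to -0.03 with library totals alone. Whether the 2 neighbouring caspase genes differ in their response was not tested.

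Gsdmd (ENSMUSG00000022575, chromosome 15, 75734176 to 75739257, plus strand), the gene of the pore that caspases open, varied least of the 9 in hemin libraries, with a coefficient of variation of 3.64%. Hemin libraries had 48.5, 45.5, 48.4, 49.8 and 46.3 CPM, against 44.0 to 50.8 CPM with a median of 47.5 CPM in TGF-β1 libraries. The hemin values lay wholly inside the TGF-β1 range. Its 95% interval was 0.928 to 1.08-fold around a log2 fold change of 0.0033 (edgeR adjusted p = 0.981). On FPKM the sign turned (-0.098, limma adjusted p = 0.0847), as it did with other scalings.

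Among the cytokine genes Il1a, whose product acts as an alarmin without needing a caspase cut, was higher per length than Il1b, at 6.35 and 0.586 FPKM on average in hemin libraries. Il1a (ENSMUSG00000027399, chromosome 2, 129141530 to 129151892, minus strand) had 13.2, 16.9, 15.2, 10.8 and 13.9 CPM in hemin libraries and 8.79 to 13.8 CPM (median 11.6) in TGF-β1 libraries. Of the hemin libraries 3 were above all TGF-β1 libraries, and replicate 5 was below the TGF-β1 median. The difference of 0.28 on the log2 scale (SE 0.13, 1.00 to 1.46-fold) had an unadjusted p of 0.0460 and did not pass after adjustment (edgeR adjusted p = 0.183).

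Il1b (ENSMUSG00000027398, chromosome 2, 129206490 to 129213059, minus strand) had the lowest mean FPKM of the 9, with 71, 86, 136, 112 and 74 counts in hemin libraries. These are 1.11, 1.21, 1.98, 1.22 and 0.796 CPM. TGF-β1 libraries ranged from 0.546 to 2.73 CPM with a median of 0.953 CPM. The highest value belonged to TGF-β1 replicate 4, at 195 counts, while the other 5 TGF-β1 libraries were at or below 1.10 CPM. For Il1b the log2 fold change was 0.13 (SE 0.39), and its 95% interval of 0.619 to 1.94-fold was the widest of the 9 (edgeR adjusted p = 0.890). Without TGF-β1 replicate 4 it was 0.59 and still did not pass (edgeR adjusted p = 0.278). Over the single-library omissions it ran from -0.094 to 0.59, so no direction can be given for this gene. The same library was also the highest of the TGF-β1 group for Il1a (13.8 CPM), Nlrp3 (70.0 CPM) and Tnf (4.20 CPM).

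Il18 (ENSMUSG00000039217, chromosome 9, 50466127 to 50493140, plus strand) encodes a cytokine that drives interferon gamma production by lymphocytes. Its CPM in hemin libraries were 3.07, 2.59, 2.17, 2.50 and 2.52, against 2.88 to 4.48 with a median of 3.43 in TGF-β1 libraries. Of the hemin libraries 4 were below every TGF-β1 library, and hemin replicate 2 overlapped TGF-β1 replicate 2. Il18 had the largest fitted difference of the 9 in size, -0.47 on the log2 scale (SE 0.15, 0.575 to 0.903-fold), and missed the threshold (edgeR adjusted p = 0.0515). Of its 20 alternatives 8 passed, among them DESeq2 (-0.48, adjusted p = 0.0215) and the 3 limma fits, and all 20 gave a lower level with hemin. It rests on 149 to 333 counts per library. On the opposite strand Bco2 shares 355 bases with Il18 and Tex12 lies inside it, both at or below 0.51 FPKM on average.

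The antagonist gene Il1rn (ENSMUSG00000026981, chromosome 2, 24226865 to 24241506, plus strand) encodes the protein that occupies the interleukin 1 receptor without signalling. Its CPM were 110, 99.5, 119, 105 and 111 in hemin libraries and ranged from 88.0 to 113 with a median of 93.2 in TGF-β1 libraries. All 5 hemin libraries lay above the TGF-β1 median, but TGF-β1 replicates 1 and 3 reached 112 and 113 CPM. Its log2 fold change was 0.15 (SE 0.07, 0.999 to 1.23-fold), which did not pass (edgeR adjusted p = 0.201). On log2(FPKM + 1) it was 0.04.

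**Figure D2:**
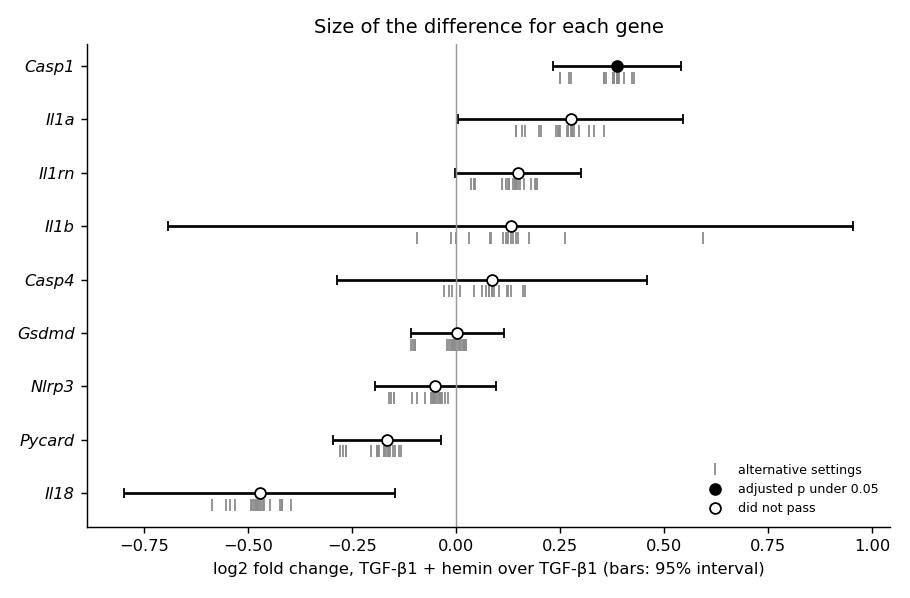
Log2 fold change of TGF-β1 plus hemin over TGF-β1 for each gene, with 95% intervals from the edgeR fit; grey ticks below each point are the alternative settings. Casp1 is filled because it passed at an adjusted p under 0.05, and the ticks of Gsdmd, Casp4 and Il1b lie on both sides of 0.

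Per length the 9 genes covered a wide range of levels. In hemin libraries mean FPKM fell in the order Pycard (24.6 ± 1.66), Gsdmd (17.9 ± 0.466), Il1rn (17.6 ± 0.956), Nlrp3 (13.8 ± 1.53), Casp1 (9.78 ± 0.756), Il1a (6.35 ± 1.07), Il18 (2.22 ± 0.297), Casp4 (0.734 ± 0.141) and Il1b (0.586 ± 0.193). In TGF-β1 libraries the order was the same, with Pycard at 29.7 ± 1.49, Casp1 at 8.07 ± 0.724, Il18 at 3.33 ± 0.591 and Il1b at 0.582 ± 0.422. In both groups Gsdmd overlapped Il1rn and Casp4 overlapped Il1b. With TGF-β1 alone Il1rn also overlapped Nlrp3, and Il1a overlapped Il18. The machinery genes Pycard, Gsdmd, Nlrp3 and Casp1 thus stood above each of the cytokine genes in both groups, but Casp4 stood below Il1a and Il18. The antagonist gene was at the level of Gsdmd.

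**Figure D3:**
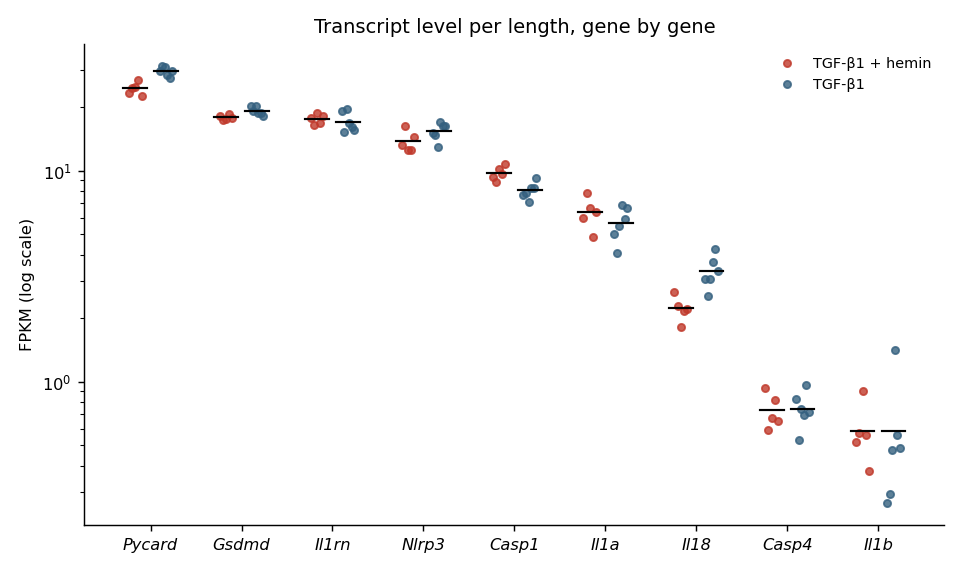
FPKM of the 9 genes on a log axis, ordered by their mean in TGF-β1 libraries. Points are libraries, TGF-β1 plus hemin to the left of TGF-β1, and lines are means; Pycard is highest and Il1b lowest in both groups.

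The antagonist transcript outnumbered both agonist transcripts in every library. The FPKM ratio of Il1rn to Il1b was 34.5, 28.7, 20.8, 30.0 and 48.2 in hemin libraries, and 12.0 to 72.3 with a median of 36.6 in TGF-β1 libraries. TGF-β1 replicate 4 had the lowest and TGF-β1 replicate 1 the highest ratio, so the TGF-β1 range enclosed that of hemin. The ratio of Il1rn to Il1a was 2.98, 2.1, 2.81, 3.46 and 2.84 with hemin and 2.36 to 3.85 with a median of 3.15 with TGF-β1 alone. Mean ratios were 2.84 ± 0.488 with hemin and 3.12 ± 0.679 with TGF-β1 alone (SD, n = 5 and 6), closer than the spread between libraries.

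**Figure D4:**
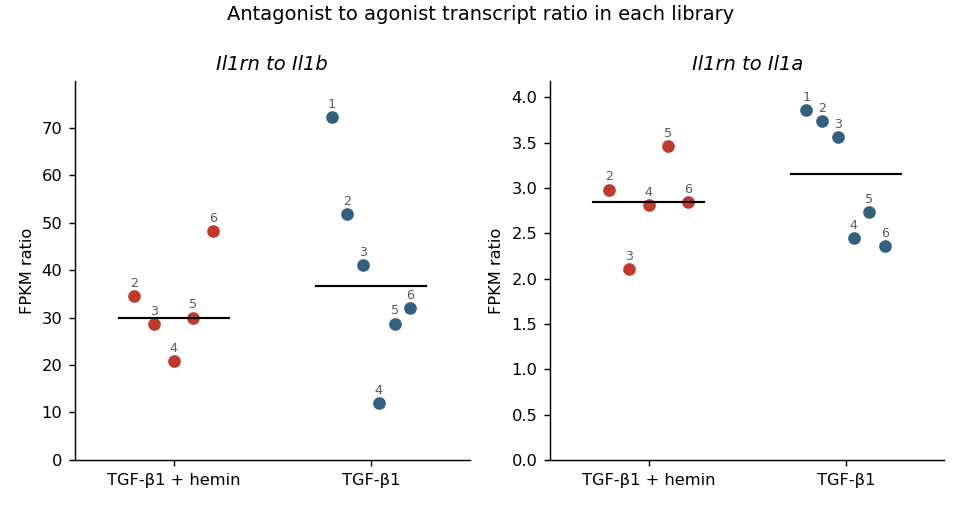
FPKM ratio of the antagonist gene Il1rn to Il1b (left) and to Il1a (right) in each library, with replicate numbers; lines are medians. In both panels the groups overlap, and TGF-β1 replicate 4 has the lowest Il1rn to Il1b ratio at 12.0.

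The rest of the pathway was read from 10 lists of 99 genes, of which 85 were tested. With hemin 19 rose and 9 fell, 32.9% against the background of 14.2%. The median log2 fold change of the 85 was -0.0030, beside -0.0025 for all tested genes. List medians were 0.37 for pores and channels, 0.27 for priming, 0.12 for secretion and proteases, -0.03 for signalling and -0.06 for sensors. They were -0.11 for other caspases, -0.16 for interferon-inducible helpers, -0.17 for receptors and -0.22 for negative regulators. The 1 tested ligand gene was at 1.81. The lists were drawn up with earlier results of these data known, so that share is a description. Of all tested genes 8.43% were called higher and 5.75% lower, and 10.2% had groups that did not overlap on CPM. Each list's counts below stand beside those shares and are not results about the lists as sets.

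The priming list held the most calls: 7 of 14 tested genes rose and none fell, and the median over the 14 was 0.27 on the log2 scale. Tnf, an inflammatory cytokine gene, had 9.32, 10.9, 10.9, 9.39 and 12.0 CPM in hemin libraries and 2.08 to 4.20 CPM (median 2.69) in TGF-β1 libraries, a 3.74-fold rise (edgeR adjusted p = 5.12e-07). Tlr2, a receptor gene for bacterial lipoproteins, had 172 to 193 CPM with hemin and 87.4 to 104 CPM with TGF-β1 alone. The groups of both genes were far apart. Relb and Nfkb2, which encode NF-κB subunits, rose 2.06-fold and 1.27-fold. Nfkbiz, Nfkbie and Bcl3, which encode regulators of NF-κB, rose 2.30-fold, 1.72-fold and 1.33-fold. Nfkbiz was low, at 0.536 FPKM with hemin and 0.251 FPKM with TGF-β1 alone. On CPM the groups overlapped for Nfkbiz and Bcl3 but not for Relb, Nfkb2 and Nfkbie. The 7 that did not pass included Tlr4, the lipopolysaccharide receptor gene (log2 fold change -0.06), and Nfkb1 (0.0086). They also included a pair of NF-κB-responsive genes with lower fitted levels, Ptgs2 (-0.68, unadjusted p = 0.0278, edgeR adjusted p = 0.131), which encodes cyclooxygenase 2, and the cytokine gene Il6 (-1.38, edgeR adjusted p = 0.374). Genes of this list other than Tnf and Tlr2 were picked for naming after their values were seen.

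Among genes of pores, membrane rupture and ion channels 5 of 8 tested rose and none fell, and the median over the 8 was 0.37 on the log2 scale. Panx1, which encodes the ATP-releasing channel pannexin 1, had 49.7, 48.7, 52.1, 57.4 and 56.0 CPM with hemin and 25.2 to 30.5 CPM with TGF-β1 alone, a 1.85-fold rise (edgeR adjusted p = 5.81e-08). Ninj1, which encodes the membrane protein that carries out plasma membrane rupture, had 191 to 220 CPM with hemin and 137 to 162 CPM with TGF-β1 alone, a 1.38-fold rise. Neither gene's groups overlapped, as for 10.2% of all tested genes. The other 3 were Gsdme, a second gasdermin gene, P2rx4, an ATP-gated channel gene, and Kcnk13, a potassium channel gene, with log2 fold changes of 0.79, 0.42 and 0.32, named after their values were seen. P2rx7, which encodes the ATP receptor that triggers NLRP3, was at 0.94-fold and did not pass (edgeR adjusted p = 0.263).

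**Figure D5:**
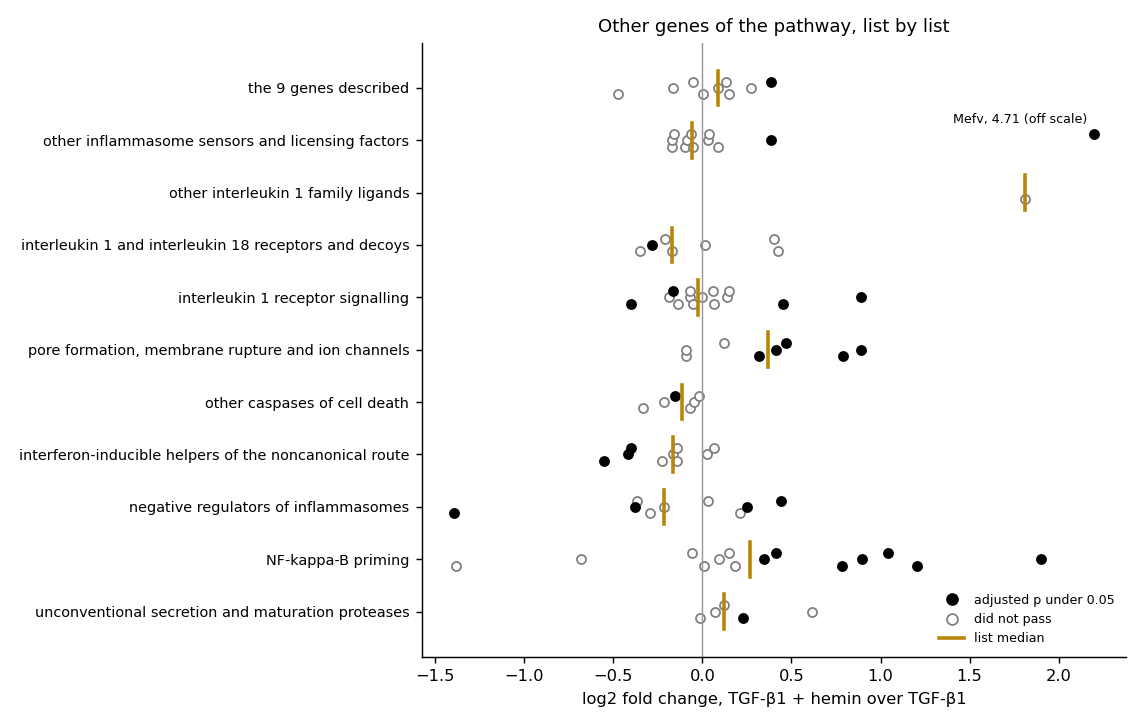
Log2 fold change of every tested gene in the 10 pathway lists, below the 9 genes described; filled points passed at an adjusted p under 0.05 and ochre lines are list medians. In the priming list 7 of 14 and in the pore and channel list 5 of 8 are filled and above 0; Mefv lies beyond the axis at 4.71.

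Of 12 tested sensors and licensing factors 2 rose, beside 8.43% of all tested genes, and none fell. Aim2, Nlrc4, the Naip genes and Nek7 did not pass. Pstpip1, which encodes a binding partner of pyrin, had 101 to 113 CPM with hemin and 76.5 to 90.2 CPM with TGF-β1 alone, a 1.31-fold rise (edgeR adjusted p = 0.000168). Mefv, which encodes pyrin itself, a sensor of RhoA inactivation, was rare, with 27, 34, 58, 24 and 63 counts in hemin libraries. Among TGF-β1 libraries replicates 3 and 4 had 4 counts each and the other 4 had 0. It passed (edgeR adjusted p = 0.0012), but the fitted size rests on those few counts. The Naip genes are related copies, and whether the counting split reads among them was not tested.

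Of 14 signalling genes downstream of the interleukin 1 receptor 2 rose and 2 fell, beside 8.43% and 5.75% of all tested genes. Ikbkg, which encodes the NEMO subunit of the IκB kinase, had 80.4 to 90.4 CPM with hemin and 36.6 to 50.9 CPM with TGF-β1 alone (1.85-fold). The more abundant G6pdx lies wholly inside it on the opposite strand, at 73.5 FPKM with hemin and 71.6 FPKM with TGF-β1 alone, beside 9.46 FPKM with hemin and 5.51 FPKM with TGF-β1 alone for Ikbkg. Irak3, which encodes a kinase-dead brake on this pathway, rose 1.37-fold; 541 of its bases overlap Tmbim4 on the opposite strand, which itself rose (log2 fold change 0.40). G6pdx itself did not pass (log2 fold change 0.15, edgeR adjusted p = 0.0543). No label gives the strand setting of the counting, so the Ikbkg and Irak3 rises are uncertain, at least in size. Whether reads of the overlapping genes entered these counts was not tested. Traf6, the ubiquitin ligase gene of the pathway, fell to 36.2 ± 3.58 CPM with hemin, against 47.7 ± 4.14 CPM with TGF-β1 alone (edgeR adjusted p = 0.00137), and Tab2, an adaptor gene, fell to 118 ± 4.23 CPM with hemin, against 132 ± 5.27 CPM with TGF-β1 alone (edgeR adjusted p = 0.0149). Among 7 tested receptors and decoys Il1rl2, whose product binds the related interleukin 36 ligands, fell to 31.9 ± 1.03 CPM against 38.8 ± 3.23 CPM (edgeR adjusted p = 0.00544).

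Of 9 tested genes listed as interferon-inducible helpers of the caspase 11 route 3 fell, beside 5.75% of all tested genes, and none rose. The list is broad, and Zbp1 in it encodes a sensor of nucleic acids, not of lipopolysaccharide. Irf1, a transcription factor gene, had 16.8 to 20.5 CPM with hemin and 23.5 to 25.5 CPM with TGF-β1 alone. Gbp7, a guanylate-binding protein gene, had 16.5 to 19.3 CPM with hemin and 20.8 to 27.2 CPM with TGF-β1 alone. Zbp1, a nucleic acid sensor gene, had 5.03 to 7.18 CPM with hemin and 6.83 to 10.3 CPM with TGF-β1 alone. The edgeR adjusted p was 0.000836 for Irf1, 0.00282 for Gbp7 and 0.00708 for Zbp1. The groups overlapped for Zbp1. They did not for Irf1 and Gbp7, as for 10.2% of all tested genes.

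Of 9 tested genes listed as negative regulators of inflammasomes 2 were called higher and 2 lower, and not all of them act as restraints only. Serpinb1a, which encodes an inhibitor of neutrophil-type serine proteases and of caspase 1 activation, had 4.19, 6.36, 3.60, 4.22 and 4.19 CPM with hemin and 9.52 to 13.5 CPM with TGF-β1 alone. Its groups were far apart, a 2.63-fold fall (log2 fold change -1.39, SE 0.15, edgeR adjusted p = 5.35e-06). Trim30a, which encodes a ubiquitin ligase that lowers NLRP3 activity, fell to 32.7 ± 1.51 CPM with hemin, against 42.6 ± 5.38 CPM. Card19 rose 1.36-fold. Ripk3, a necroptosis kinase gene that can also promote NLRP3 activity, was higher at 1.19-fold (edgeR adjusted p = 0.0494), but passed in only 4 of its 21 alternatives.

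Among the remaining lists Casp8 was the 1 of 6 other caspase genes called, at 83.4 ± 2.59 CPM with hemin and 92.8 ± 3.79 CPM with TGF-β1 alone (edgeR adjusted p = 0.0203, and 0.0515 without hemin replicate 4). Capn2, a calpain gene, was the 1 of 5 secretion and protease genes called, at 1.17-fold (log2 fold change 0.23, edgeR adjusted p = 0.00208). It passed in 17 of its 21 alternatives. With library totals it was 0.11 (adjusted p = 0.149), and in the 3 limma fits 0.11 to 0.12 (adjusted p of 0.118 to 0.214). The elastase gene Elane was too low to test. Of other interleukin 1 family ligands Il36g was the 1 tested, with 0.0653 to 0.624 CPM with hemin and 0 to 0.224 CPM with TGF-β1 alone, and it did not pass (edgeR adjusted p = 0.193).

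Genes whose library-to-library deviations were most like those of each gene were sought among 9419 genes of at least 1 FPKM, by the Pearson correlation of log2 CPM after subtracting each group's mean, over 11 libraries and as a description. For Casp1 they were Dynlt1f (0.895), Gsta3 (0.886) and Pkn3 (0.870). For Pycard they were Rpl18 (0.950), Id3 (0.935) and Uqcrc2 (0.931), and for Il18 Usf3 (0.917), Gpatch2 (0.909) and Lpp (0.902). Il1a was closest to Ddx6, Mia3 and Itgam (0.945, 0.934 and 0.931) and Nlrp3 to Tnrc18, Ripor1 and Usp19 (0.929, 0.910 and 0.896). Il1rn was closest to Eef1a2, Psmd14 and Oxct1 (0.925, 0.918 and 0.904) and Gsdmd to Birc5, Cdipt and Psmd13 (0.934, 0.933 and 0.933). Il1b and Casp4 were under 1 FPKM and were not searched. None of these closest genes was another of the 9. Each correlation was picked as among the highest of 9419 genes over 11 libraries, and high values can come from the search alone. Whether these genes vary together beyond that was not tested.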

How the data were processed

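RNA was measured in 11 libraries, 5 with TGF-β1 plus hemin and 6 with TGF-β1, grouped by the title prefix (TH or T), matched to the conditions named in the series' design. TRIzol-extracted RNA was poly(A)-selected and copied to cDNA with a dUTP-marked second strand, per the labels' protocols. The submitters' processing notes name HISAT2 2.2.1, StringTie 2.1.6, cutadapt 1.9, DESeq2, FastQC 0.11.9 and the build GRCm39, without role or order. Neither the counter, the annotation release nor the strand setting is stated there. A single deposited table holds raw counts per gene and, in separate columns, FPKM calculated by the authors.

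The main test was the quasi-likelihood test of edgeR 4.0.16 in R 4.3.3, with TMM scaling and no covariate besides group, on the 15132 genes that filterByExpr kept (minimum count 10, minimum total 15). Its p-values are 2-sided and were adjusted by Benjamini-Hochberg over those genes, with a threshold of 0.05. CPM use the same factors. The script was tested on simulated counts. Alternatives were DESeq2 1.42.0, other scalings and filters, robust dispersions, the replicate number as a block, limma 3.58.1 on log2(FPKM + 1) and log2(FPKM + 0.1), and each library left out. No pair of libraries agreed within sampling noise (chi-square of at least 27.0 per degree of freedom). A count's precision is set by depth and by the spread between libraries; SDs are over libraries.

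The genes, lists and markers were chosen with earlier results of these data known. Named genes are the 9, Hmox1, in each list at most 2 called genes a direction, taken by adjusted p (all calls where a list had at most 3; its most abundant gene where it had none), and the 3 genes most alike in deviation. Genes named outside this rule, called or not, were chosen after their values were seen. Sequences are from RefSeq, GRCm38.p6.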

Additional observations from a re-analysis of the deposited data

Results flagged for a closer look

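A library is listed here where its gap to the nearest other library of its group was large against the group's whole range (Dixon's 95% limit, which chance passes in about 1 of 20 groups). The limit was passed in 6 of 82 groups tested.

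TGF-β1 replicate 4 stood above its group for Il1b, at 2.73 CPM with the others at 0.546 to 1.10 CPM, and for Tab2, at 143 CPM with the others at 128 to 132 CPM. TGF-β1 replicate 3 stood below for Nlrp3, at 54.9 CPM with the others at 64.4 to 70.0 CPM. TGF-β1 replicate 2 stood below for Ikbkg, at 36.6 CPM with the others at 46.2 to 50.9 CPM. In the hemin group replicate 2 stood below for Card19, at 53.5 CPM with the others at 61.8 to 64.5 CPM, and replicate 3 above for Serpinb1a, at 6.36 CPM with the others at 3.60 to 4.22 CPM.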

How the results depend on the processing

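Casp1 was higher with hemin and passed in all 21 alternatives, and Il1a, Il1b, Il1rn, Nlrp3, Casp4 and Gsdmd passed in none of theirs. Il18 passed in DESeq2 (-0.48), with median-of-ratios factors (-0.48), with library totals (-0.59), in limma with pseudocounts of 1 (-0.42, with and without a filter) and 0.1 (-0.55), and without TGF-β1 or hemin replicate 2. Over single omissions it ran from -0.54 to -0.40. Pycard passed in DESeq2 (-0.17), with library totals (-0.28), among genes of at least 5 FPKM (-0.19), in limma with pseudocounts of 1 (-0.26, with and without a filter) and 0.1 (-0.27), and without hemin replicate 5, with -0.20 to -0.13 over single omissions. The genes of the 9 called lower were therefore 2 in DESeq2, with library totals and in the 3 limma fits, 1 with median-of-ratios factors and above 5 FPKM, and 0 to 1 over single omissions, against 0 in the edgeR test.

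Among the 9, signs turned for Casp4, Gsdmd and Il1b, which never passed. Casp4 was at -0.030 with library totals and -0.0099 in limma without a filter, and ran from -0.016 to 0.17 over single omissions, as did Il1b from -0.094 to 0.59. Gsdmd was at -0.0034 in DESeq2, -0.0047 with median-of-ratios factors, -0.11 with library totals, -0.022 above 5 FPKM, -0.098 in limma with a pseudocount of 1 (both filters) and -0.10 with 0.1, and ran from -0.018 to 0.023. These scalings shift all genes: the median of all genes was -0.12 with library totals and -0.10 in limma with a pseudocount of 0.1. Calls over all genes moved with them, from 1276 higher and 870 lower to 734 and 2487 with library totals, and in limma to 685 and 2186, 683 and 2197 (pseudocount 0.1), and 659 and 1626 (no filter). Pathway genes called lower were 18 with library totals, 17 in both filtered limma fits and 14 without a filter, against 9, and those called higher were 12 above 5 FPKM, against 19. Il1b, Casp4 and Il18 lie under that filter and have no value there; Il1b and Casp4 also fall under the 1 FPKM filter of limma.

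The replicate block gave 939 higher and 593 lower genes, with Casp1 still called (0.38) and Tab2, Casp8 and Ripk3 no longer called. Same-numbered libraries correlated at -0.44 to 0.28 in their deviations, and 1 of 5 hemin libraries correlated best with its own number. These values give no sign of pairing by number. They cannot exclude a shared animal or culture, because subtracting group means yields correlations of both signs in any case.

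The monocyte marker call was lost with a pseudocount of 0.1 (-0.32) and on log2 CPM (-0.14), and over single omissions (-0.19 to -0.13) held in 1. The mast cell list ran from -0.11 to -0.073 and passed without TGF-β1 replicate 1, and the T, NK and B cell list from -0.030 to 0.012. On log2 CPM the macrophage (0.037), neutrophil (0.17), dendritic (0.066) and fibroblast (0.15) lists turned positive, as did the neutrophil list with a pseudocount of 0.1 (0.024); none passed. The cause of these changes was not tested. The log2 ratio of Il1rn to Il1b moved by less than its spread in every alternative. Its difference, hemin minus TGF-β1, was -0.15 and ran from -0.45 to 0.068 over single omissions, so its sign turned. Among the 9, Il1b had the lowest count of any library, 40, with 195 in its highest.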
